A study of Mus musculus with 8 samples.

Results

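Fibronectin and the matricellular proteins are the adhesive and signalling part of the extracellular matrix that myofibroblasts lay down. The group described here holds 9 genes, namely Fn1, Tnc, Thbs1, Thbs2, Postn, Sparc, Spp1, Ccn1 and Ccn2. Values were taken from probe sets annotated with exactly 1 of these symbols and were averaged per symbol. On the array used, 8 of the 9 genes had such a probe set, out of 22180 genes measured in this way. The osteopontin gene Spp1 had none, and its expression was not analysed here.

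RNA levels were read in EMS404, a mouse line that stands for myofibroblastic hepatic stellate cells (MF-HSCs), the scar-forming cells of the injured liver. Every sample received a small interfering RNA (siRNA) at 20 nM by lipofection and was collected after 48 h. The siCTRL group (4 arrays) received a non-targeting control siRNA, and the siBNC2 group (4 arrays) received an siRNA against Bnc2, the gene of the zinc-finger protein Basonuclin 2, a transcription factor. All 8 samples thus come from 1 cell line of one species, and Bnc2 was reduced rather than deleted. The labels number the arrays 1 to 4 in each group without saying what arrays of one number share. The study describes its cell line replicates as independent and says that compared groups were processed together in each round, but not whether a number marks a round. Values are log2 intensities per gene from 1 array per sample, and the number of arrays limits their precision.

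Fibronectin is the scaffold on which other matrix proteins assemble, and cells bind it through integrins. Matricellular proteins are secreted into the matrix but act mainly as modulators of adhesion, growth factor activity and matrix assembly, and many of them are induced during wound repair and fibrosis. Ccn1 and Ccn2 are widely used as direct target genes of YAP and its DNA-binding partner TEAD, and Ccn2 and Thbs1 also respond to TGF-β in many mesenchymal cells.

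Ccn1 and Tnc differed in opposite directions on the arrays numbered 4 (log2 differences of −1.19 and 0.97, only the former past the threshold), and the bases upstream of their starts are printed to allow a comparison of sequence motifs. RefSeq promoter windows on GRCm38.p6 were matched by symbol for 6 of the 9 genes, Spp1 included, and Fn1, Thbs1 and Ccn2 were not among them. Each sequence holds the 250 bases before the start on the strand of the gene, at chr3:145649986-145650235 (minus strand) for Ccn1 and chr4:64047016-64047265 (minus strand) for the start of Tnc listed first. Capitals mark a TEAD motif (GGAATG on either strand, thus CATTCC when read from the other one) and the letters TATAAA on the gene strand.
Ccn1: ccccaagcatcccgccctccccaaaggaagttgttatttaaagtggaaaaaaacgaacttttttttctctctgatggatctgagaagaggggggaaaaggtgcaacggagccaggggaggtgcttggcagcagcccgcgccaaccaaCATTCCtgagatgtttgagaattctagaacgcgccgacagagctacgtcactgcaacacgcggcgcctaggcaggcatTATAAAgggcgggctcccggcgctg
Tnc: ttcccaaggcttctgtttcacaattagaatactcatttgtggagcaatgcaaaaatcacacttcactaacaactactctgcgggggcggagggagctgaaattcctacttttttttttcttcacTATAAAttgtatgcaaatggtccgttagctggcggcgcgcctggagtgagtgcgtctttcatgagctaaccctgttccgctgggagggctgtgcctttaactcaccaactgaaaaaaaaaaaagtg
The TEAD motif began 103 bases before the start of Ccn1, and TATAAA began 25 bases before it. In Tnc, TATAAA lay 126 bases before the start, and no TEAD motif was found in the window. Of the 6 genes with windows, 1 (Ccn1) held the TEAD motif, against 12.6% of 32851 windows of the same length over all genes. TATAAA was found in 4 of the 6 genes (Tnc, Postn, Spp1 and Ccn1), against 7.59% of windows. The 6 genes had 9 windows, and Postn and Spp1 did not hold TATAAA in all of theirs. Counts of genes and shares of windows are thus not on one scale. An AP-1 motif (TGANTCA, both strands) was found in 0 of the 6 genes, against 6.75% of windows. These matches describe letters only, and a link between a motif and the direction of a difference was not tested.

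The labels and the arrays were checked first. Bnc2 read 8.26, 8.41, 8.37 and 9.03 on siCTRL arrays 1 to 4, and 7.07, 6.78, 6.72 and 8.18 on siBNC2 arrays 1 to 4. The groups did not overlap, and siBNC2 differed from siCTRL by −1.33 ± 0.31 (SE) on the log2 scale, or 2.51-fold lower. An exact two-sided permutation test over the 8 arrays gave p = 0.0286, which is the lowest value that groups of 4 can reach, whereas limma gave an adjusted p of 1.00 over all genes. Of the 11 markers of mesenchymal cells and myofibroblasts, 8 lay at or above a log2 value of 5.66, the 40th percentile of gene means, which is taken here as the limit of dim genes. Thy1, Lrat and Reln were below it, as were 3 of 5 hepatocyte and 2 of 4 cholangiocyte markers, including Alb and Krt19. So were 4 of 5 macrophage and leukocyte and 3 of 5 endothelial markers, including Ptprc and Cdh5. At or above it lay Apoa1 and Cyp3a11 (hepatocytes), Epcam and Sox9 (cholangiocytes), Cd68 (macrophages and leukocytes), and Pecam1 and Kdr (endothelial cells). The median gene on an array lay between 6.26 and 6.35, and array pairs correlated with r between 0.975 and 0.991 over probe sets.

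The genes Fn1, Tnc, Thbs1, Sparc, Ccn1 and Ccn2 lay well above the limit of dim genes. Postn, whose product periostin binds collagen and integrins, lay just above it with a mean of 5.69, and Thbs2, encoding the angiogenesis inhibitor thrombospondin 2, lay below it with a mean of 5.11. Differences for these last 2 genes were therefore measured close to the floor of the array. Since each gene is read by its own probes, levels were not ranked between genes.

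Setting siBNC2 against siCTRL addresses whether these genes depend on Bnc2 in MF-HSCs. With limma, 0 of the 8 genes passed an adjusted p of 0.05, against a background of 0.00% of all 22180 genes. At an unadjusted p under 0.05 there were 0 of the 8 genes, against a background of 3.19% (708 genes). That unadjusted limit was passed by Tnc and Thbs1 without both arrays numbered 4 (824 of all 22180 genes passed it there). Thbs1 passed it with the number 4 as a term (961 genes), and Tnc with the replicate number as a block (1207 genes). Tnc also passed it without siBNC2 array 4 (1099 genes), and Postn without siCTRL array 1 (710 genes). In each case 0 of the 8 genes passed the adjusted limit. In no gene of the group were the 2 sets of arrays apart, against 2.16% of all genes that did not overlap. The median difference of the 8 genes was −0.10, with 3 genes higher and 5 lower in siBNC2, beside a median of 0.01 over all genes. In such bulk RNA, fewer cells expressing a gene and less of its RNA per cell cannot be told apart.

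Among the structural adhesive proteins, Fn1, which encodes fibronectin itself, read 18.46, 18.64, 18.86 and 18.75 in siCTRL and 18.66, 18.53, 18.54 and 18.95 in siBNC2. The group means were 18.68 ± 0.17 (SD, n = 4) and 18.67 ± 0.19, and the difference was −0.01 with a 95% confidence interval of −0.32 to 0.31. The values of siBNC2 lay among those of siCTRL, apart from siBNC2 array 4, which was the highest of the 8.

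Tnc encodes tenascin-C, a large glycoprotein that appears around activated stellate cells and loosens adhesion to fibronectin. It read 14.80, 14.14, 14.87 and 15.32 in siCTRL and 14.33, 13.50, 14.18 and 15.23 in siBNC2. The siBNC2 array was the lower one at each of the 4 numbers, an order that was not counted over all genes. The groups overlapped widely, since both arrays numbered 4 were high and both numbered 2 were low. The difference, −0.47 ± 0.35 (SE), had an interval of −1.25 to 0.31 and an exact permutation p of 0.314. Over all 8 arrays it had the largest size of the group, but Thbs1 had a larger one without siCTRL array 4 or without siBNC2 array 2. Leaving out 1 array gave −0.78 (without siBNC2 array 4) to −0.21 (without siBNC2 array 2). Without both arrays numbered 4 it was −0.60 (limma, adjusted p = 0.999). With the replicate number as a block it was −0.47 ± 0.14 (interval −0.79 to −0.16, limma, adjusted p = 0.787).

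Sparc encodes a collagen-binding protein of remodelling tissue also called osteonectin. It read 17.13, 17.10, 17.56 and 17.46 in siCTRL and 17.18, 17.05, 16.91 and 17.31 in siBNC2. The difference was −0.20 ± 0.15 (interval −0.53 to 0.14, exact permutation p = 0.257), and the groups overlapped. Postn read 5.29, 5.96, 6.14 and 5.87 against 5.37, 5.42, 5.74 and 5.75, a difference of −0.24 ± 0.19, and of −0.42 without siCTRL array 1 and −0.14 without siCTRL array 3.

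Of the thrombospondins, Thbs1 encodes a protein that can release TGF-β from its latent complex. It read 15.27, 15.20, 15.61 and 14.01 in siCTRL and 15.11, 14.97, 14.90 and 13.85 in siBNC2. The siBNC2 array was the lower one at each number, an order that was not counted over all genes. The groups overlapped, since siCTRL array 4 lay below siBNC2 arrays 1 to 3. The difference was −0.31 ± 0.37 over all arrays (interval −1.13 to 0.51, exact permutation p = 0.457) and −0.36 ± 0.16 without both arrays numbered 4 (limma, adjusted p = 0.999). It was −0.65 without siCTRL array 4 and −0.03 without siBNC2 array 4. Its size thus moved most when only 1 of the arrays numbered 4 was left out. With the replicate number as a block the difference was −0.31 ± 0.14 (interval −0.63 to 1.0e-04, limma, adjusted p = 0.912). Thbs2 read between 5.00 and 5.23 in siCTRL and between 5.03 and 5.17 in siBNC2, with a difference of 0.03 ± 0.11.

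The CCN genes encode secreted proteins that bind integrins and heparan sulfate. Ccn1 (also known as Cyr61) read 16.66, 17.00, 16.81 and 15.49 in siCTRL and 16.98, 17.34, 16.74 and 15.98 in siBNC2, a difference of 0.27 ± 0.36 (interval −0.54 to 1.08, exact permutation p = 0.571). It was −0.06 without siCTRL array 4 and 0.53 without siBNC2 array 4, where the other array numbered 4 was kept. Without both arrays numbered 4 it was 0.19 ± 0.19, and with the replicate number as a block 0.27 ± 0.13. Its sign thus turned only when siCTRL array 4 alone was left out.

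Ccn2 (connective tissue growth factor) was read by 2 probe sets that disagreed, as the plot of both probe sets shows. The first read 13.75, 14.41, 14.08 and 11.19 in siCTRL and 14.10, 14.63, 13.97 and 11.46 in siBNC2. The second stayed between 5.63 and 6.02 on all 8 arrays, close to the limit of dim genes. Their mean, used as the value of the gene, read 9.88, 10.11, 10.01 and 8.59 in siCTRL and 9.99, 10.32, 9.98 and 8.55 in siBNC2, and it understates the differences of the bright probe set. The difference between siBNC2 and siCTRL was 0.06 ± 0.43 (interval −0.89 to 1.02) for the mean and 0.18 ± 0.80 for the bright probe set. Leaving out siCTRL array 4 turned the former to −0.29, and its sign also turned without siBNC2 array 1, 2 or 3. Without both arrays numbered 4 the difference of the mean was 0.10 ± 0.16. With the replicate number as a block it was 0.06 ± 0.12.

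**Figure D1:**
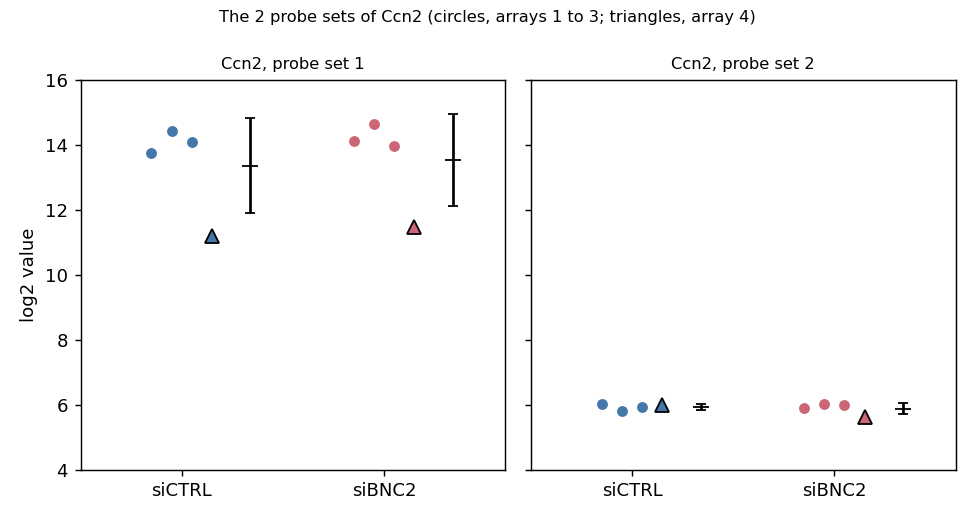
Log2 values of the 2 probe sets of Ccn2 by siRNA group, with circles for arrays 1 to 3, triangles for array 4 and dashes with bars for the mean ± SD of 4 arrays. The triangles of probe set 1 lie at 11.19 and 11.46, below all circles, whereas all values of probe set 2 lie between 5.63 and 6.02.

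**Figure D2:**
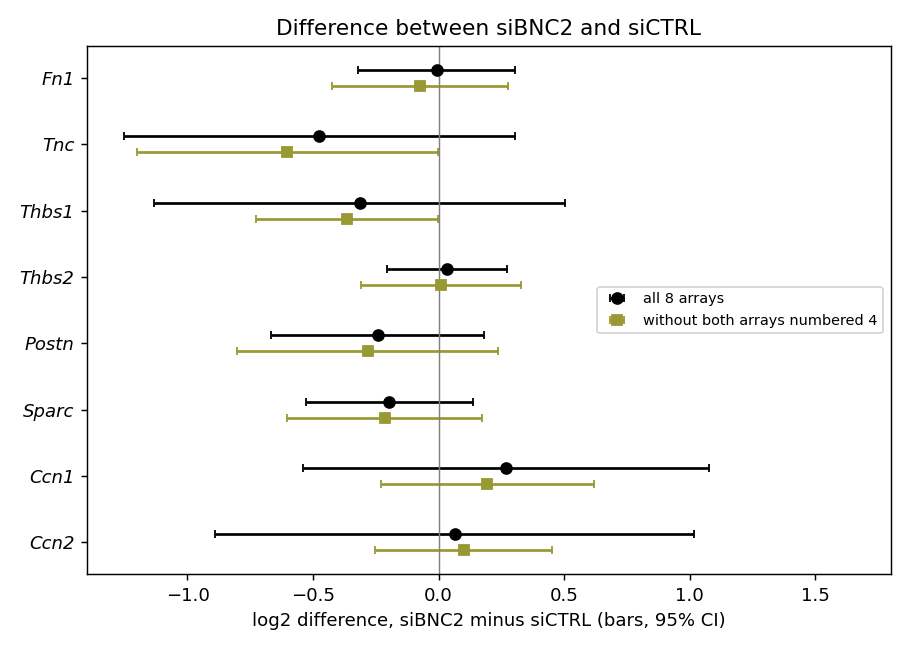
Log2 difference of siBNC2 minus siCTRL for each of the 8 genes, over all 8 arrays (circles) and without both arrays numbered 4 (squares), with 95% confidence intervals from limma as bars. All intervals over 8 arrays include 0, and those of Tnc and Thbs1 without arrays numbered 4 end just below 0.

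**Figure D3:**
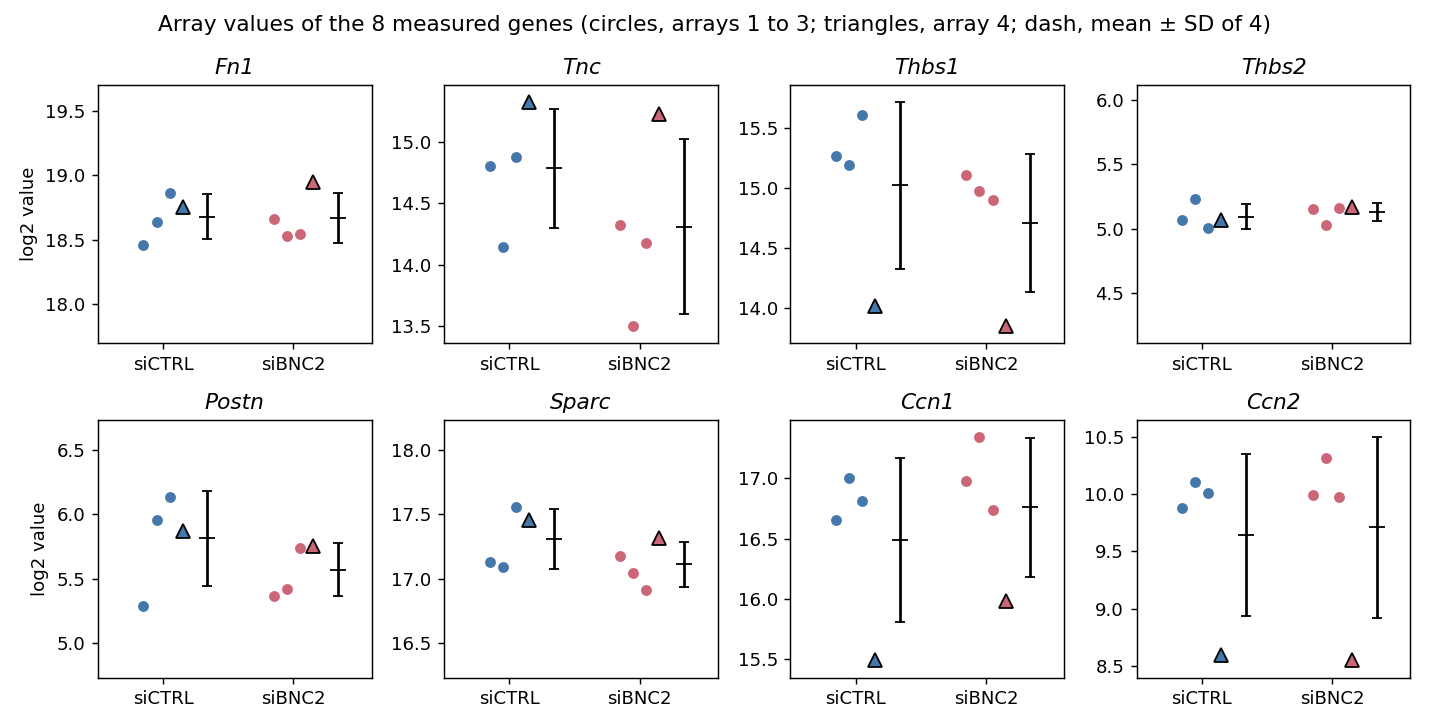
Log2 values of the 8 measured genes on each array by siRNA group, with a vertical axis of its own for each gene. Circles are arrays 1 to 3, triangles are array 4, and dashes with bars give the mean ± SD of 4 arrays, and the triangles lie below all circles for Thbs1, Ccn1 and Ccn2 and above them for Tnc.

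The larger differences lay within the siRNA groups. Of the 8 genes, 3 fell on the arrays numbered 4 compared with those numbered 1 to 3, in a limma model with a term for the siRNA (adjusted p under 0.05). These were Thbs1, Ccn1 and Ccn2, against a background of 1.63% of all genes called lower (361 genes). No gene of the group was called higher, against 1.76% (391 genes). In both directions 752 genes, or 3.39%, were called. These shares include dim genes. After leaving those out, 496 of 13308 genes were called lower and 586 higher, which is a larger share. The same 3 genes and Tnc were called there. This contrast of 2 against 6 arrays was proposed with earlier results of these data known. It rests on 1 array of each siRNA, and an exact permutation of the number 4 within each group has only 16 arrangements and cannot go below p = 0.0625, the value reached by Thbs1, Ccn1, Ccn2 and Tnc. Both arrays numbered 4 lay below the other 6 for these 3 genes, as for 7.87% of all genes, and above them for Tnc, as for 10.0%. Without siCTRL array 4 the count over all genes was 44, without siBNC2 array 4 it was 71, and without siCTRL array 3 it was 1160. Of the 3 genes only Ccn2 was still called without siCTRL array 4 or without siBNC2 array 4.

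Ccn2 had the largest of these differences. Its mean level was 8.57 on the arrays numbered 4 and 10.05 ± 0.15 (SD, n = 6) on the others, a difference of −1.48 ± 0.15 (SE), or 2.79-fold lower (limma, adjusted p = 0.00115). The bright probe set alone differed by −2.83 ± 0.22, or 7.12-fold (limma, adjusted p = 3.0e-04), while the second probe set differed by −0.13. Within siCTRL the gene differed by −1.41 and within siBNC2 by −1.55.

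Thbs1 was 13.93 on the arrays numbered 4 and 15.18 ± 0.25 on the others, a difference of −1.25 ± 0.15, or 2.37-fold lower (limma, adjusted p = 0.00285). It differed by −1.35 within siCTRL and by −1.15 within siBNC2. Ccn1 was 15.73 against 16.92 ± 0.25, a difference of −1.19 ± 0.18, or 2.28-fold lower (limma, adjusted p = 0.0081), with −1.34 within siCTRL and −1.04 within siBNC2. For all 3 genes the array numbered 4 was thus the lowest of its group under either siRNA, by more than the spread of the other 6 arrays.

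Tnc went the other way without passing the threshold. Its mean level was 15.27 on the arrays numbered 4 and 14.30 ± 0.50 on the others, a difference of 0.97 ± 0.26 (limma, adjusted p = 0.0776). The adjusted p was 0.0494 after leaving out dim genes and 0.0282 with array weights. The difference was 0.71 within siCTRL and 1.22 within siBNC2.

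The remaining genes had smaller differences. Fn1 differed by 0.24 ± 0.15 (limma, adjusted p = 0.506), or by 0.41 after quantile normalization of the deposited values, and Sparc by 0.23 ± 0.16. Postn differed by 0.16 ± 0.22 and Thbs2 by 0.01 ± 0.13. These genes, read on the same arrays, did not pass the threshold, and for Fn1 the interval reached from −0.10 to 0.57.

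**Figure D4:**
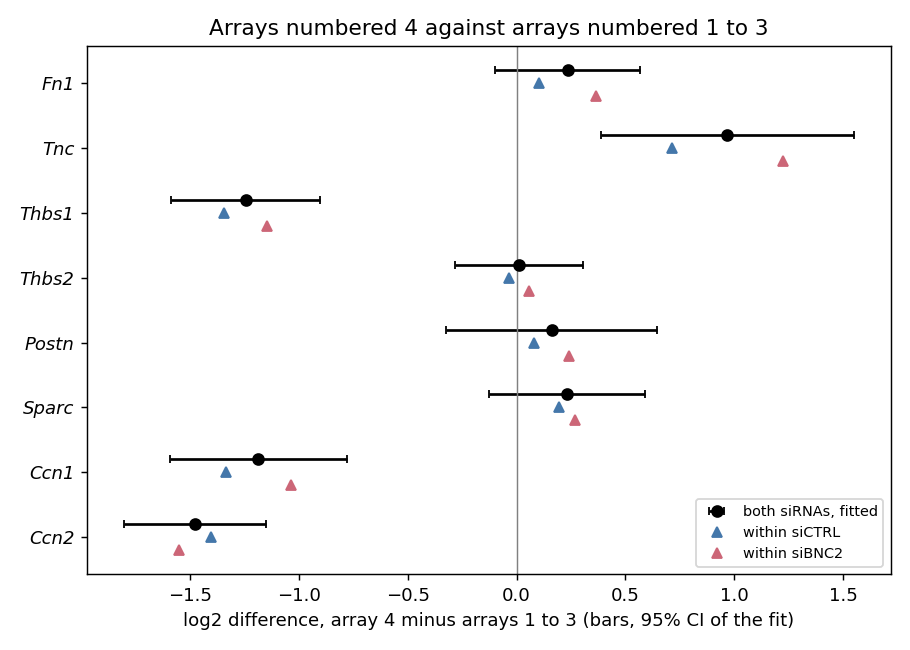
Log2 difference of the arrays numbered 4 minus those numbered 1 to 3 for each of the 8 genes, fitted over both siRNAs (circles, with 95% confidence intervals from limma) and within each siRNA group (triangles, 1 array against 3). Thbs1, Ccn1 and Ccn2 lie between −1.55 and −1.04 in every comparison, and Tnc lies between 0.71 and 1.22.

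Whether siBNC2 acted differently on the arrays numbered 4 was tested by an interaction term. With limma, 0 genes were called (0.00% of 22180, with 556 genes at an unadjusted p under 0.05), and all 8 genes of the group had an adjusted p of 0.9995. The siRNA effect on the arrays numbered 4 minus that on arrays 1 to 3 was 0.20 ± 0.32 for Thbs1, 0.30 ± 0.38 for Ccn1 and −0.15 ± 0.31 for Ccn2, and 0.11 for the bright probe set of Ccn2. For Bnc2 itself this value was 0.65, that is, Bnc2 was lowered less on the arrays numbered 4. It read 8.18 in siBNC2 against 9.03 in siCTRL there, and 6.85 against 8.35 as means of arrays 1 to 3. The 0 calls thus do not show that silencing was equal on all arrays. With 1 array of each siRNA numbered 4, the spread came from arrays 1 to 3.

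Other measures moved with the number 4. Bnc2 was higher on those arrays, by 1.00 ± 0.17 (SE, limma, adjusted p = 0.0137), although siBNC2 array 4 remained below siCTRL arrays 1 to 3. This call was lost without siCTRL array 4 or without siBNC2 array 4. Interferon-stimulated genes, which cells induce on sensing double-stranded RNA or interferon, were much lower, with 9 of the 10 measured genes of that list called, against 1.63% of all genes called lower. Their median difference was −4.37, and their mean level per array was between 9.81 and 10.07 on the arrays numbered 4 and between 12.79 and 14.40 on the other 6. Of these genes Ifit1 differed by −4.74 and Rsad2 by −5.43. Mesenchymal markers had a mean level of 10.69 to 11.05 over the siCTRL arrays and 10.79 to 10.99 over the siBNC2 arrays. These ranges do not show where the arrays numbered 4 lay, so a shift of the markers with that number cannot be read from them. The part of these measures in the results for Thbs1, Ccn1, Ccn2 and Tnc was not tested.

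Genes related to the group by function were listed with earlier results of these data known, and each list is described beside the median difference of 0.01 over all genes, of which 11515 were higher and 10665 lower on the arrays numbered 4, with 3.39% called. Among 24 other matricellular and adhesive glycoproteins, 0 passed the threshold on the arrays numbered 4 (adjusted p under 0.05), 13 of them being dim, and their median was 0.03. The galectin gene Lgals3 differed by −0.56 (limma, adjusted p = 0.0597) and the integrin-binding Tgfbi by 0.58 (adjusted p = 0.122). Among 16 receptors of these proteins, 1 fell (background 1.63%) and 0 rose (1.76%), with a median of 0.03. The gene that fell was Cd44, a receptor for hyaluronan and osteopontin, which differed by −1.57 ± 0.32 (limma, adjusted p = 0.0290) and was no longer called without siCTRL array 4 or without siBNC2 array 4. Itgb3, a subunit of integrins that bind fibronectin and thrombospondins, differed by 0.85 (adjusted p = 0.0709).

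YAP and TEAD targets other than Ccn1 and Ccn2 had a median of −0.33 over 19 of 20 genes measured, with 14 lower and 5 higher, of which 1 fell (background 1.63%) and 1 rose (1.76%) past the threshold. F3, the gene of tissue factor, fell, with a difference of −2.59 ± 0.20 (limma, adjusted p = 3.5e-04). Tgfb2, a TGF-β ligand, rose by 1.20 ± 0.15 (adjusted p = 0.00307), a call lost without siCTRL array 4 or without siBNC2 array 4. TGF-β response genes had a median of −0.46 over 9 of 10 genes measured, with 8 lower and 1 higher and 0 past the threshold. The adaptor gene Tgfb1i1 differed by −0.69 (adjusted p = 0.0552) and Smad7, an inhibitor of TGF-β signalling, by −0.73 (adjusted p = 0.0679).

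**Figure D5:**
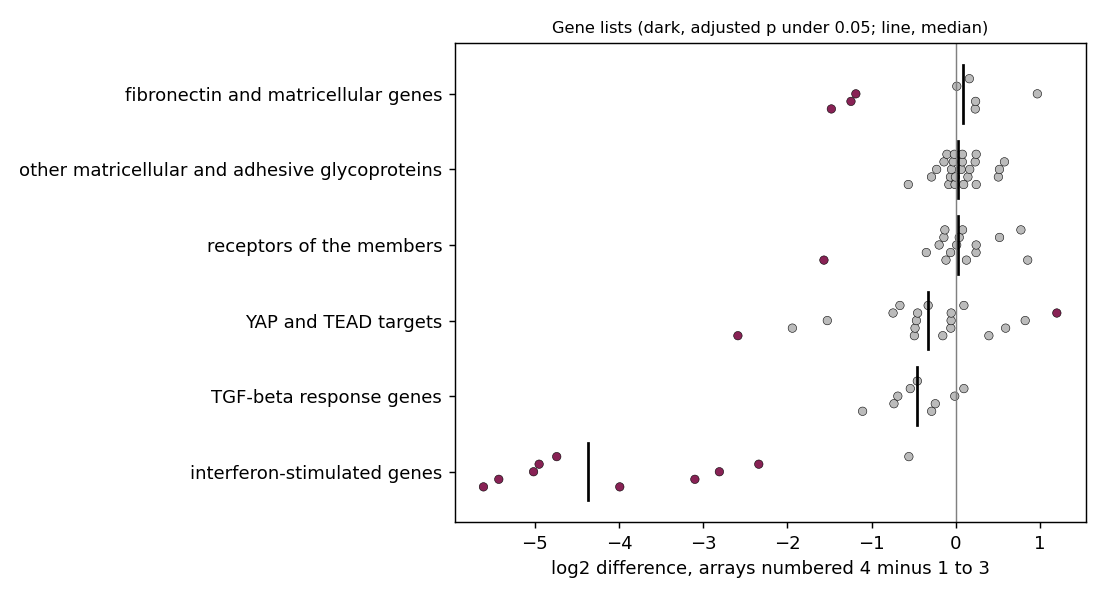
Log2 difference of the arrays numbered 4 minus those numbered 1 to 3 for each gene of 6 lists, with dark points for genes at an adjusted p under 0.05 and vertical lines for the median of a list. Medians lie at 0.09 for fibronectin and the matricellular genes, −0.33 for YAP and TEAD targets and −4.37 for interferon-stimulated genes.

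In the comparison of siBNC2 with siCTRL the same lists gave 0 genes past the threshold (background 0.00%). Over all genes 11514 were higher and 10666 lower in siBNC2. The other glycoproteins had a median of 0.06 (16 higher, 8 lower), receptors −0.18 (4 higher, 12 lower) and YAP and TEAD targets −0.05 (5 higher, 14 lower). TGF-β response genes had a median of 0.06 (9 higher, 0 lower) and interferon-stimulated genes −0.01 (4 higher, 6 lower). The members with the smallest p were the proteoglycan gene Spock1 (0.26, dim), the bone sialoprotein gene Ibsp (−0.31, dim), the integrin subunit Itga8 (0.27, dim) and the tenascin-binding phosphatase Ptprz1 (0.49). In the other lists they were the growth factor binding protein Igfbp3 (−1.03 ± 0.53), the kinase Nuak2 (−0.27), the transcriptional repressor Bhlhe40 (0.39), Ltbp2 (0.34), Ifit3 (−0.18) and Irf7 (0.39). All had an adjusted p of 1.00.

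The genes with profiles most like Tnc and Ccn2 were found by the root mean square distance between centred log2 values over the 8 arrays, among genes that were not dim. For Tnc, whose SD over arrays was 0.62, these were the mannosidase gene Man1a at a distance of 0.10, the claudin gene Cldn15 at 0.15 and Frmd4b at 0.15. Man1a differed by −0.48 between siBNC2 and siCTRL, Cldn15 by −0.61 and Frmd4b by −0.59, each with an adjusted p of 1.00. For Ccn2, whose SD was 0.70, they were the mitochondrial iron transporter gene Slc25a37 at 0.12, the small GTPase gene Rras2 at 0.14 and the cyclin gene Ccnd1 at 0.14. This Ccn2 profile was the mean of both probe sets, which differed by −2.83 and −0.13 on the arrays numbered 4. The distance depends on the size of differences, and neighbours of the bright probe set alone were not sought. On the arrays numbered 4, Slc25a37 differed by −1.38, Rras2 by −1.23 and Ccnd1 by −1.31. These values describe likeness over the 8 arrays alone, and the genes were picked for it.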

How the data were processed

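The authors deposited log2 values from Affymetrix mouse gene arrays (MoGene 2.0), made with Affymetrix Power Tools through the GIANT toolset (GC correction, intensity scaling, then RMA at core gene level). The version of Affymetrix Power Tools and the genome build are not given in the sources used here. RMA includes quantile normalization, so a shift common to most genes would have been removed. Of 41345 probe sets, 23521 had 1 gene symbol in the platform annotation, 1820 had several and 16004 had none, and only the first kind was used, averaged per symbol. The table had 0 unused columns, and 0 pairs of arrays were identical.

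Each gene was fitted by lmFit and eBayes of limma 3.58.1 under R 4.3.3, two-sided, with Benjamini-Hochberg adjustment over 22180 genes and a threshold of 0.05. The comparison of siBNC2 with siCTRL had group as its only term. The contrast of the arrays numbered 4 had a term for the siRNA. Single genes were also tested by exact permutation over arrays. The genes named are the 9 of the group, Bnc2, the 2 of each list with the smallest p in each comparison, and the 3 profiles nearest to each of 2 genes. The members and lists were chosen with earlier results of these data known. The fit was tested on simulated data. Alternatives were quantile normalization, median centring, a filter at the 40th percentile, the brightest probe set, a trended robust prior, array weights, the replicate number as a block, the number 4 as a term, no siRNA term, and leaving out arrays. The alternatives of the interaction term were chosen after seeing the data.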

Additional observations from a re-analysis of the deposited data

Results flagged for a closer look

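In 3 of the 18 groups of 4 arrays examined (9 genes including Bnc2, in 2 groups each), the lowest array stood apart from the others by Dixon's 95% critical value for the gap as a share of the range of the group. Chance flags about 1 group in 20. Thbs1 read 13.85 on siBNC2 array 4, with a gap of 0.834 of the range. Ccn2 read 8.59 on siCTRL array 4, with a gap of 0.852. Thbs2, a dim gene, read 5.03 on siBNC2 array 2, with a gap of 0.881. The arrays numbered 4 thus account for the flags of the 2 genes well above background.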

How the results depend on the processing

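In the comparison of siBNC2 with siCTRL, 0 genes and 0 of the 8 genes of the group passed under each alternative, and their directions were kept apart from leaving out single arrays. Leaving out 1 array at a time gave −0.10 to 0.054 for Fn1, −0.065 to 0.53 for Ccn1, −0.29 to 0.45 for Ccn2, −0.34 to 0.13 for Ifit3 and −0.95 to 1.55 for Irf7, which thus changed direction. For the arrays numbered 4, the count of 752 genes was 1584 with array weights, and 44 to 1160 without single arrays, the lowest without siCTRL array 4 and the highest without siCTRL array 3. Without siBNC2 array 4 it was 71. The count within the group was 3 under all alternatives with all arrays, except 4 with the dim filter and with array weights, where Tnc passed, and 1 to 3 without single arrays. Lgals3, Itgb3, Tgfb1i1 and Smad7 also passed with that filter and with array weights. Where an arm is left with 1 array, that array is assumed to vary like the others, and the test also has fewer samples. Thbs2 differed by −0.0078 after median centring, by −0.035 within siCTRL alone and by −0.035 to 0.058 without single arrays, and the filter on dim genes removed it. The interaction value of Ccn2 turned to 0.11 with its brightest probe set, which leaves out the flat one. The cause of the other changes was not tested. Deviations of same-numbered arrays correlated with r of 0.390, 0.415, −0.001 and 0.667. Those of differently numbered arrays had r between −0.529 and 0.131, apart from 0.401 for siCTRL array 1 with siBNC2 array 3. No source used here says that a number marks a round, so the main fit did not take the numbers to pair the samples. With the replicate block 0 genes passed (1207 at an unadjusted p under 0.05, against 708), and the differences were −0.47 ± 0.14 (SE) for Tnc (limma, adjusted p = 0.787) and −0.31 ± 0.14 for Thbs1 (limma, adjusted p = 0.912). Signal close to background limits Thbs2 and Postn.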
